A study of Danio rerio with 12 samples.

Results

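Of the 326 mature zebrafish microRNAs in the tables, 4 were followed here, namely dre-miR-187, dre-miR-338, dre-miR-735-5p and dre-miR-22a-5p, written below without the species prefix. All 4 passed the filter on low counts. They were picked by name as little-described microRNAs that had been higher in endothelium in an earlier reading of these data. The difference between the populations is therefore given here as a description with no test, and the tests concern the change with age. The study sequenced small RNA from cells of transgenic zebrafish, raised at 28 °C, dissociated with Liberase and sorted for GFP, to follow microRNAs of endothelial cells, which line blood vessels, through 4 developmental stages. Titles name the groups Endo and NoEndo, collected at 24, 48 and 72 hours post fertilization (hpf) and at 6 days post fertilization (dpf). All carry the same labels apart from title and stage, with no transgene or promoter named, and NoEndo samples, too, are labelled as endothelial and GFP in source, tissue and stain. The assignment to groups therefore comes from the titles alone, and no label used here says which cells the NoEndo sort held. Replicate 1 of each population at 72 hpf held identical values and was left out, which left 5 Endo and 5 NoEndo libraries (a pair at 48 hpf, otherwise 1 per stage). The labels do not tie replicates to separate clutches, and p-values then speak of the spread among the samples at hand, possibly technical. With a pair of libraries only at 48 hpf, that spread also takes in departures of the stages from the fitted models.

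MicroRNAs are cut from both arms of a hairpin precursor, and an Argonaute protein keeps mainly one arm, the guide, which pairs with messenger RNAs through the bases near its 5′ end and lowers their translation and stability. The other arm is usually scarcer, and the ratio of the arms can differ between tissues. In mammals, miR-22 is a broadly expressed microRNA studied in heart muscle, where the 3p arm is the usual guide, and miR-338 is known from oligodendrocytes and lies within the gene of the kinase AATK. miR-187 has been studied mostly in human tumour cells, and miR-735 is a name from fish. None of these roles was measured here.

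Reads on mature microRNAs ran from 250084 to 1068864 in the Endo and from 643870 to 5028382 in the NoEndo libraries, which were on the whole deeper. A count of 0 allowed up to 12.002 CPM (counts scaled to a common library total) in the shallowest and 0.602 CPM in the deepest library, counting error only. The endothelial markers were far higher in the libraries titled Endo. Of the 4 listed names, the 2 tested singly, miR-126a-3p and miR-126b-3p, summed to between 20677 and 66182 CPM in Endo and between 215 and 488 in NoEndo. The 5p arms of both were tested as a joint entry outside these sums, with a log2 difference of 6.36 (SE 0.48). These sums, like all levels called scaled below, are CPM after TMM scaling, which evens out differences in library composition. Endo also held more of the leukocyte list, of which 4 of 6 names were tested and 3 were higher. Summed scaled levels were 10509 to 132418 CPM against 513 to 1847. Over the Endo libraries together this sum was mostly miR-150, which averaged 27927 scaled CPM over all 10 libraries. The highest count in any library was 60091 for miR-150, 6832 for miR-223, 213 for miR-142a-3p and 208 for miR-155. The sum is thus largely the level of a single microRNA. Within that list miR-142a-5p had no count in 3 libraries of each population, and all other listed names in the tables had counts in every library. The epithelial list, with all 6 names tested and lower in Endo, summed to 7659 to 39136 CPM in Endo and 29945 to 320738 in NoEndo. The part of these other cell types in the levels of the 4 microRNAs was not tested. As in any bulk sample, more cells of a type and more RNA per cell cannot be told apart.

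Each of the 4 microRNAs was listed at its own set of places in the Zv9 genome, and this sets how its reads were shared out. miR-187, of 20 bases, had a pair of places on the plus strand of chromosome 19, at 35551066-35551085 and 35688420-35688439, which lie 137354 bases apart and held the same reads. miR-338, of 22 bases, had 3 places, on chromosome 12 at 18795147-18795168 and 38062369-38062390 on the plus strand and on chromosome 3 at 52527419-52527440 on the minus strand, and they held 33.7%, 33.2% and 33.1% of its adjusted counts. Which of these copies made the mature microRNA cannot be told apart. miR-22a-5p, of 22 bases, had 1 place, at 24261993-24262014 on the minus strand of chromosome 15. Its partner miR-22a-3p lay 19 bases away at 24261952-24261973, but the reads of the 3p arm also matched chromosome 21 at 38102094-38102115, where no 5p arm was listed. miR-735-5p, listed with only 18 bases, lay on the minus strand of chromosome 24 at 39681024-39681041 and, with fewer reads, on the scaffold Zv9_NA427 at 14684-14701. Exons and introns in Zv9 were not analysed here.

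The gene names of a newer assembly, GRCz12tu, used for names and neighbours only, placed these hairpins in unlike surroundings. Of the 3 entries for miR-338, 1 lies within aatka and 1 within aatkb, the zebrafish counterparts of AATK, and the third within no gene. miR-187 has a single entry there, with mir-187-1 and mir-187-2 among its synonyms, against a pair of places in Zv9. The entries of miR-187 and miR-22a lie within long non-coding RNA genes. The hairpin dre-mir-735 appears there as a synonym of rny2, a gene of 63 bases within mybpc2b, a gene for a myosin-binding protein of muscle, and a second coding gene known by a clone name. In human, symbols of this form name Y RNAs, short structured RNAs bound by the Ro protein, although the table gives rny2 the biotype miRNA. Whether the reads counted as miR-735-5p came from a Y RNA was not tested, and its levels below are those of reads at the listed places. The tables at hand list no 3p arm for miR-735 and a single arm for miR-187 and miR-338.

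At every stage, each of the 4 microRNAs was higher in every Endo library than in every NoEndo library of that stage. Of the 265 microRNAs tested, 42 (15.8%) had this order, and 38 (14.3%) passed the test between populations in the direction of Endo at an adjusted p under 0.05. Since the 4 were chosen on this difference, nothing is read from their agreement. Across all stages, 2 of the 4, miR-338 and miR-22a-5p, had no overlap between the populations in scaled levels, an order found in 5.28% of all microRNAs. Scaled by total counts alone, 19 microRNAs were higher and 89 lower in Endo, against 38 and 73, and the median log2 difference over all microRNAs shifted by -0.46.

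miR-338 had the largest difference of the 4 in this model, with a log2 difference of 3.36 (SE 0.55) in a fit with stage as a factor. In Endo its scaled level was 260 CPM at 24 hpf, 161 and 542 CPM in replicates 1 and 2 at 48 hpf, 440 CPM at 72 hpf and 1094 CPM at 6 dpf. In NoEndo it was 72.4 CPM at 24 hpf, 11.7 and 52.7 CPM at 48 hpf, 37.1 CPM at 72 hpf and 46.8 CPM at 6 dpf. The lowest Endo library was thus above the highest NoEndo library, also before TMM scaling, at 156 against 125 CPM. The Endo mean was 499 ± 364 CPM and the NoEndo mean 44.1 ± 22.3 CPM (SD, n = 5 libraries over 4 stages, here and for the other microRNAs). The Endo level was 3.59 times that of NoEndo at 24 hpf, then 11.9 times at 48 hpf, 11.9 times at 72 hpf and finally 23.4 times at 6 dpf. A larger difference was found for 6 of the 265 microRNAs tested at 6 dpf, and for 8 to 18 of them at the earlier stages. Because miR-338 was chosen for this difference, nothing is read from its rank. The rank at 6 dpf also rests on 1 library of each population. The Endo library of 6 dpf carried the smallest TMM factor, 0.468, and the fold there was 19.3 before TMM scaling. That library held 512 CPM of miR-338 before TMM scaling, below the 685 CPM of Endo replicate 2 at 48 hpf. Before TMM scaling the folds were smaller at every stage for all 4. At 48 hpf, where NoEndo replicate 2 carried the largest factor, they were 7.13 for miR-338, 6.04 for miR-187, 2.87 for miR-735-5p and 1.82 for miR-22a-5p. At 72 hpf they were 8.67, 4.88, 1.78 and 1.34 in the same order.

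The slopes of miR-338 with age did not pass in either population. Slopes are log2 changes per doubling of age, tested over all 265 microRNAs with edgeR's quasi-likelihood test and Benjamini-Hochberg adjustment. The slope was 0.80 in Endo (SE 0.39, adjusted p = 0.244) and -0.20 in NoEndo (SE 0.38, adjusted p = 0.746). The slope in Endo minus that in NoEndo was 1.001 (SE 0.55, adjusted p = 0.949), so a growing gap between the populations was not shown. That difference was 0.036 with the identical 72 hpf file counted as NoEndo, 0.079 with it under both titles and 0.51 without NoEndo at 24 hpf, and the Endo slope was 0.47 without Endo at 6 dpf and 0.39 with total counts. The difference of slopes passed for 0 of the 265 microRNAs (0%), of which 12 had an unadjusted p under 0.05, and for 1 with DESeq2. In simulated data with slope differences of 2, the test found 70% at this number of libraries, and 5% of those of 1. These draws gave all microRNAs a common spread, no other difference between populations and no change with stage beyond the slopes put in. The real libraries differ in all of these, so these shares are a rough guide.

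miR-187 was the second of the 4 by difference and rose with age in both populations. In Endo its scaled level was 52.7 CPM at 24 hpf, 115 and 100 CPM in replicates 1 and 2 at 48 hpf, 169 CPM at 72 hpf and 581 CPM at 6 dpf. In NoEndo it was 10.3 CPM at 24 hpf, 10.7 and 10.6 CPM at 48 hpf, 25.3 CPM at 72 hpf and 153 CPM at 6 dpf. Both populations were thus highest at 6 dpf, and the NoEndo library of that age lay above the Endo libraries of 24 and 48 hpf in scaled level. Before TMM scaling that library held 86.6 CPM, below the 111 and 127 CPM of Endo at 48 hpf and above the 46.3 CPM of Endo at 24 hpf. The counts behind these values were small, from 15 to 153 in Endo and from 6 to 157 in NoEndo, and the 6 reads in NoEndo at 24 hpf give 9.34 CPM before TMM scaling with a 95% Wilson interval of 4.28 to 20.4. The log2 difference between populations was 2.74 (SE 0.41), the means being 204 ± 215 CPM in Endo against 41.9 ± 62.2 CPM in NoEndo. By stage, the Endo level was 5.10 times that of NoEndo at 24 hpf, then 10.1 times at 48 hpf, 6.68 times at 72 hpf and finally 3.81 times at 6 dpf.

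The rise of miR-187 was 1.68 per doubling of age in NoEndo (SE 0.33, edgeR adjusted p = 0.00785) and 1.35 in Endo (SE 0.34, adjusted p = 0.0470), with a slope difference of -0.33 (SE 0.47, adjusted p = 0.999). In NoEndo 15.1% of all microRNAs passed in either direction and 8.3% as rising, and in Endo 5.66% passed and 3.02% were rising, so 1 of the 4 was called in each. Only 7 of the 265 (2.64%) rose in both, the others being miR-122, miR-125a, miR-125b-5p, miR-125c-5p, miR-145-5p and miR-29a. The call in Endo was near the threshold: it ended without any 1 of the 5 Endo libraries, without NoEndo replicate 1 at 48 hpf and without NoEndo replicate 2 at 72 hpf, at adjusted p of 0.0559 to 0.375, while the slope over all removals of 1 library stayed between 1.06 and 1.53. It also ended with limma-voom (adjusted p = 0.0815) and with no filter (0.0525). The call in NoEndo ended without NoEndo at 6 dpf, where the slope was 0.81 (adjusted p = 0.361). With the identical 72 hpf file counted as NoEndo, neither passed, although the slopes were 1.35 in Endo (adjusted p = 0.171) and 1.90 in NoEndo (adjusted p = 0.0722), and under both titles the adjusted p was 0.113 and 0.0506. With that file counted as Endo, both passed, at adjusted p of 0.0256 in Endo and 0.00456 in NoEndo. Without both 6 dpf libraries the slopes were 0.94 in Endo (adjusted p = 0.241) and 0.75 in NoEndo (adjusted p = 0.357). With total counts alone both slopes missed the threshold, at 0.94 in Endo (adjusted p = 0.164) and 1.24 in NoEndo (adjusted p = 0.0525). That scaling moved the median slope of all microRNAs by -0.42 in Endo and -0.40 in NoEndo, and the split of rising against falling slopes from 8 and 7 to 4 and 9 in Endo and from 22 and 18 to 8 and 12 in NoEndo. DESeq2 size factors moved the NoEndo median by -0.13. Of the marker lists of other cell types, only those of smooth muscle and leukocytes had higher sums at 6 dpf than at 24 hpf in both populations. The striated muscle sum was lower at 6 dpf in both, with 2770 against 6290 scaled CPM in Endo and 5776 against 19440 in NoEndo. Epithelial and neuronal sums were lower at 6 dpf in Endo and higher in NoEndo, and the erythrocyte sum was lower in NoEndo only. The smooth muscle list, with all 3 names tested and counted in every library, went from 302 scaled CPM at 24 hpf to 10840 at 6 dpf in Endo and from 633 to 17108 in NoEndo, and the leukocyte list from 10509 to 132418 in Endo and from 643 to 1847 in NoEndo. Within the leukocyte list the Endo slope was 1.49 for miR-150, 0.15 for miR-142a-3p, -0.62 for miR-223 and -0.62 for miR-155. In NoEndo it was 0.80 for miR-150, 0.44 for miR-223, -1.06 for miR-142a-3p and -0.61 for miR-155. The climb of this sum therefore does not hold for each of its names. Within the smooth muscle list the slope was 2.40 in Endo and 2.17 in NoEndo for miR-145-5p, already named among those rising in both. It was 0.82 and 0.83 for miR-143, and 0.61 and 0.36 for miR-145-3p. The part of these cell types in the rise of miR-187 was not tested. Before TMM scaling the level of miR-187 still went from 46.3 CPM at 24 hpf to 272 CPM at 6 dpf in Endo, and NoEndo went from 9.34 to 86.6 CPM.

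**Figure D1:**
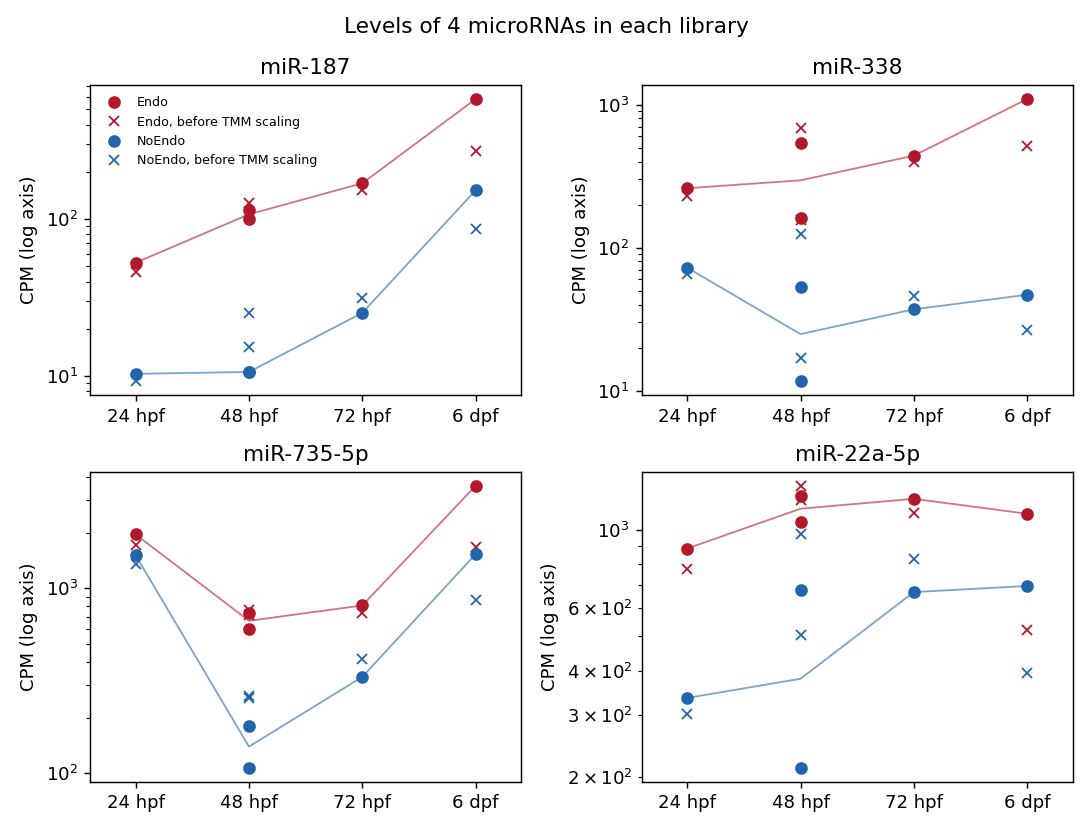
Level of each microRNA (CPM, log axis) in the 10 libraries by stage. Circles are TMM-scaled levels with a line through their geometric means, crosses the levels before TMM scaling, red Endo and blue NoEndo. miR-187 climbed to 581 CPM in Endo and to 153 CPM in NoEndo at 6 dpf, while miR-735-5p was lowest at 48 hpf in both populations.

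miR-735-5p had a different course, high at 24 hpf and 6 dpf and low between them in both populations. In Endo its scaled level was 1958 CPM at 24 hpf, 740 and 604 CPM in replicates 1 and 2 at 48 hpf, 809 CPM at 72 hpf and 3590 CPM at 6 dpf. In NoEndo it was 1510 CPM at 24 hpf, 181 and 107 CPM at 48 hpf, 332 CPM at 72 hpf and 1533 CPM at 6 dpf. The course was the same before TMM scaling, with 1718 CPM at 24 hpf, 718 to 763 CPM at 48 and 72 hpf and 1680 CPM at 6 dpf in Endo, and 1363, 255 to 414 and 870 CPM in NoEndo. Because of it the populations overlapped, with NoEndo at 24 hpf and 6 dpf above the Endo libraries of 48 and 72 hpf. A stage effect common to both populations passed (edgeR adjusted p = 0.000515), as it did for 46.8% of all microRNAs, and remained under the removal of each single library, at adjusted p of 0.000309 to 0.00405. It also remained without both 6 dpf libraries and without both 24 hpf libraries, and was lost only with the identical 72 hpf file counted as NoEndo (adjusted p = 0.0752).

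A straight slope described miR-735-5p poorly, at 0.38 in Endo (SE 0.54, adjusted p = 0.750) and 0.07 in NoEndo (SE 0.50, adjusted p = 0.913). Without both 24 hpf libraries the slopes were 1.51 (adjusted p = 0.0164) and 2.11 (adjusted p = 0.00213), and without both 6 dpf libraries -1.01 (adjusted p = 0.337) and -1.61 (adjusted p = 0.112). The NoEndo slope also passed without the NoEndo library of 24 hpf alone (2.12, adjusted p = 0.0450). The gap between the populations was smallest at 24 hpf, where Endo was 1.30 times NoEndo, and was 4.79 times at 48 hpf, 2.43 times at 72 hpf and 2.34 times at 6 dpf. Over all stages the log2 difference was 1.47 (SE 0.35), the means being 1540 ± 1268 CPM in Endo against 733 ± 724 CPM in NoEndo.

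The stage effect also passed for miR-187 (adjusted p = 0.000379), making 2 of the 4 against 46.8% of all microRNAs, a share near the background. It remained without each single library, at adjusted p of 0.000273 to 0.0145, and was lost without both 6 dpf libraries (adjusted p = 0.148). For miR-338 and miR-22a-5p it did not pass (adjusted p = 0.444 and 0.583), but with the replicate number as a block it passed for miR-338 (adjusted p = 0.0225). Outside 48 hpf, replicate number and stage go together, so their parts cannot be fully told apart.

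**Figure D2:**
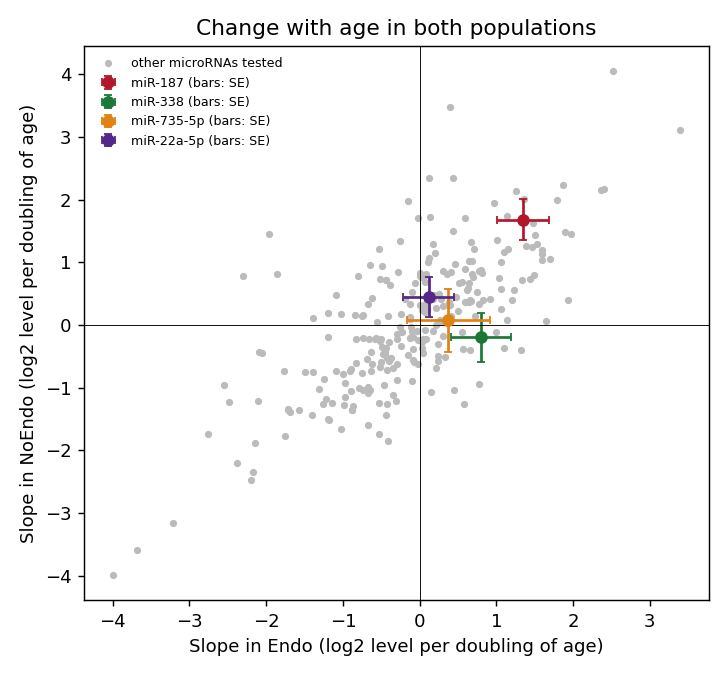
Slope of log2 level per doubling of age in Endo (x axis) and NoEndo (y axis) for the 265 microRNAs tested, with the 4 described in colour and bars of 1 SE. miR-187 lies at 1.35 and 1.68, miR-338 at 0.80 and -0.20, and the other two near the centre.

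miR-22a-5p had the most even levels of the 4 in Endo. There its scaled level was 886 CPM at 24 hpf, 1250 and 1055 CPM in replicates 1 and 2 at 48 hpf, 1225 CPM at 72 hpf and 1111 CPM at 6 dpf. In NoEndo it was 334 CPM at 24 hpf, 676 and 212 CPM at 48 hpf, 667 CPM at 72 hpf and 694 CPM at 6 dpf. All Endo libraries lay above all NoEndo libraries on this scale, but before TMM scaling they overlapped, at 520 to 1334 CPM in Endo against 302 to 975 CPM in NoEndo. The means were 1106 ± 147 CPM and 517 ± 227 CPM, and the log2 difference was 1.15 (SE 0.35), the smallest of the 4. The fold of Endo over NoEndo was 2.65 at 24 hpf and 3.03 at 48 hpf, and it was lower later, with 1.84 at 72 hpf and 1.60 at 6 dpf. Neither slope passed, at 0.12 in Endo (SE 0.33, edgeR adjusted p = 0.905) and 0.45 in NoEndo (SE 0.32, adjusted p = 0.358).

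**Figure D3:**
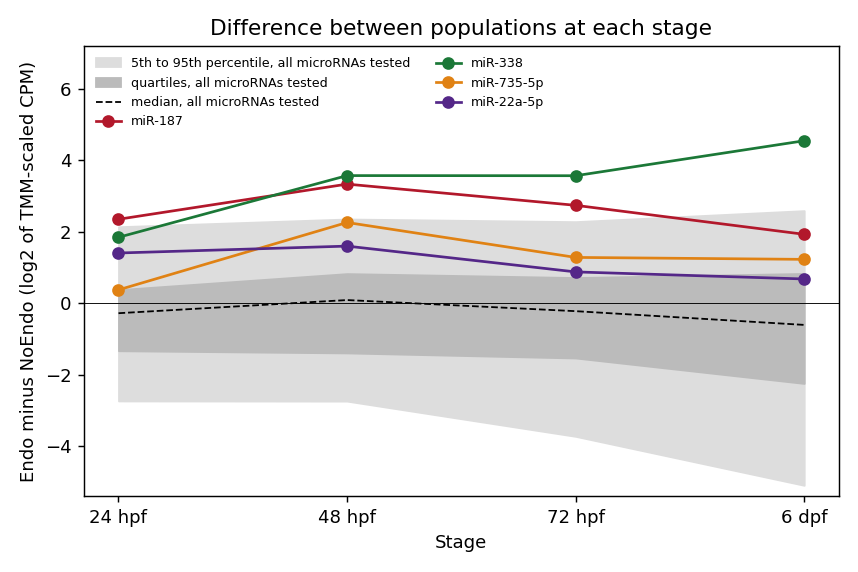
Endo minus NoEndo (log2 of scaled CPM) at each stage for the 4 microRNAs, over the median, quartiles and 5th to 95th percentile of all 265 tested. The values for all 265 used log2 of scaled CPM + 1, which lessens the differences of scarce microRNAs. All 4 lie above 0 at every stage, from 0.38 for miR-735-5p at 24 hpf to 4.55 for miR-338 at 6 dpf, and these differences were what the microRNAs were chosen for.

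The partner arm, miR-22a-3p, was the more abundant one in all 10 libraries, at 7744 ± 4621 scaled CPM in Endo and 4298 ± 2186 in NoEndo. Its log2 difference of 0.81 (SE 0.37) was smaller than that of the 5p arm, and at 72 hpf it was not higher in Endo, with 4229 CPM against 4448 in NoEndo. Only the 5p arm was chosen for its difference, so nothing is read from this order. The share of the 5p arm in the counts of both arms needs no scaling between libraries, because both arms were counted in the same library. The 3p counts include those of chromosome 21, 50% of the adjusted counts, where no 5p arm was listed. The share may therefore not be that of a single hairpin. At 24 hpf that share was 5.53% in Endo (95% Wilson interval 4.91 to 6.24, of 4554 counts) and 5.56% in NoEndo (4.85 to 6.37, of 3487 counts). At 48 hpf it was 18.9% and 18.8% in the Endo replicates and 16.1% and 16.6% in the NoEndo replicates. At 72 hpf it was 22.5% in Endo (21.3 to 23.6) and 13.0% in NoEndo (12.7 to 13.4). At 6 dpf it was 10.5% in Endo (8.95 to 12.4) and 9.29% in NoEndo (8.65 to 9.98).

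Both populations thus started at a like share, were higher at 48 hpf and lay lower again at 6 dpf. At 72 hpf the intervals of Endo and NoEndo were far apart, and at 24 hpf and 6 dpf they overlapped. These intervals cover counting error only, and with 1 library of each population at 72 hpf the difference there has no replicate check. The replicates at 48 hpf differed by less within a population than between populations. miR-22a-5p was chosen as higher in Endo, which favours a higher 5p share there. The difference in share between the populations is therefore a description only. Among the 36 hairpins with both arms listed and at least 100 counts in every library, 5 had their lowest 5p share at 24 hpf in both populations, miR-22a among them. The log2 ratio of 5p to 3p of miR-22a was higher at 48 than at 24 hpf by 1.98 in Endo and 1.73 in NoEndo, while the medians over these hairpins were -0.06 and -0.18. In Endo 7 of the hairpins and in NoEndo 6 had a larger increase. A small constant was added to each count for these ratios. In Endo most of these hairpins had a 5p share at 24 hpf of 97.3% (miR-26a) or more, or of 0% (miR-363). Their ratios thus depend on few counts of the scarcer arm. miR-16c, at 71.1%, was the exception there, with an increase of 2.98. This comparison of hairpins was chosen after the shares of miR-22a were seen.

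**Figure D4:**
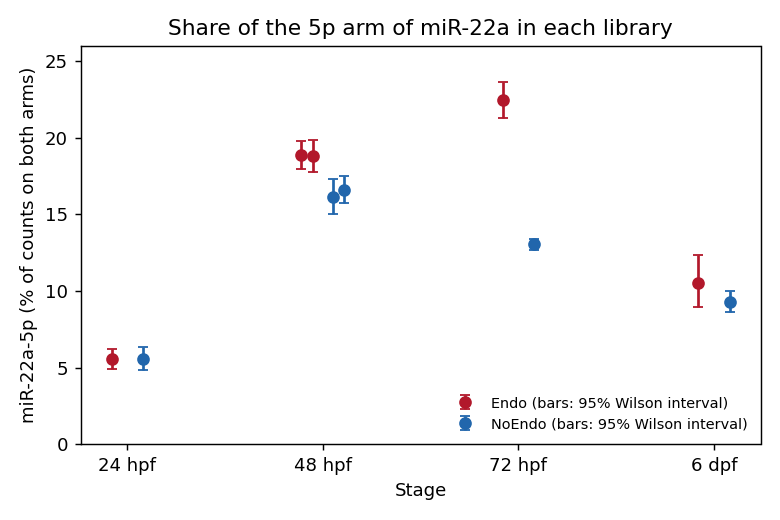
Share of miR-22a-5p in the counts of both miR-22a arms (percent) in each of the 10 libraries, by stage, with 95% Wilson intervals for counting error. Both populations are near 5.5% at 24 hpf, and Endo at 22.5% lies above NoEndo at 13.0% at 72 hpf. The 5p arm was chosen as higher in Endo, so the populations are compared as a description only.

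The related hairpin miR-22b, on chromosome 5, was scarce. miR-22b-3p averaged 35.7 ± 36.0 scaled CPM in Endo and 12.8 ± 5.82 in NoEndo (log2 difference 1.11, SE 0.47), with 98.4 CPM in Endo at 24 hpf and 34.2 CPM or less in the other Endo libraries. miR-22b-5p averaged 22.5 ± 14.0 and 16.2 ± 8.20 CPM (0.56, SE 0.53), and was lower in Endo at 24 hpf and 6 dpf, with 2 counts in each of these libraries. Its arms summed to 6 to 53 counts in the Endo libraries, too few to set a share closely, as shown by the Endo library of 6 dpf with 33.3% on the 5p arm and an interval of 9.68% to 70.0%.

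The 48 hpf replicates show how much of the spread is not age. miR-338 was higher in replicate 2 than in replicate 1 in both populations, 3.36 times in Endo and 4.50 times in NoEndo, and 4.38 and 7.40 times before TMM scaling. These differences were larger than those of 90% and 94% of all microRNAs, whose median absolute log2 difference was 0.67 in Endo and 0.68 in NoEndo. Within each replicate number the Endo level of miR-338 was above that of NoEndo, 13.8 times in replicate 1 and 10.3 times in replicate 2, and 9.27 and 5.48 times before TMM scaling. miR-338 was chosen for this difference, so its order is a description only. For miR-187 the replicates were close, with log2 differences of -0.20 in Endo and 0.00 in NoEndo, and for miR-735-5p they were -0.29 and -0.75. miR-22a-5p was even in Endo (-0.25) but lower in NoEndo replicate 2 by -1.67, and that library carried the largest TMM factor, 2.37. Its fold of Endo over NoEndo was 1.85 in replicate 1 and 4.96 in replicate 2, and 1.24 and 2.65 before TMM scaling.

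**Figure D5:**
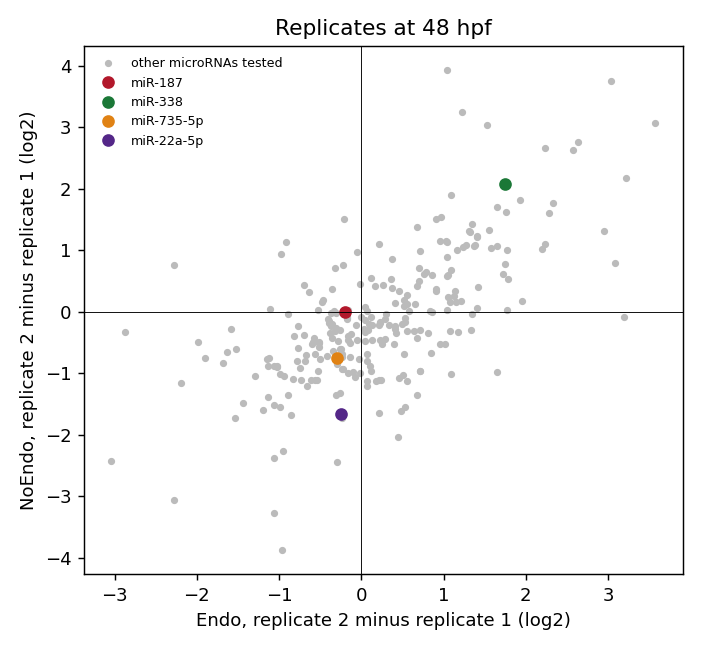
Replicate 2 minus replicate 1 at 48 hpf (log2 of scaled CPM + 1) in Endo (x axis) and NoEndo (y axis) for all microRNAs tested, with the 4 in colour. miR-338 is the only one of the 4 to lie far up in both populations, at 1.74 and 2.08, and miR-22a-5p lies low in NoEndo at -1.67.

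The number of distinct read sequences per microRNA, deposited beside the counts, differed among the 4. miR-187 had 6 to 46 distinct sequences per library with a median of 2.96 reads for each, miR-338 had 4 to 26 with 11.1 reads, miR-735-5p 32 to 90 with 14.7 reads, and miR-22a-5p 17 to 99 with 22.03 reads. The number grows with depth, and sequencing errors add to it. At similar numbers of reads, 150 to 167, miR-187 had 46 distinct sequences in Endo at 72 hpf, 43 in NoEndo at 72 hpf and 42 in NoEndo at 6 dpf, miR-735-5p had 38 in NoEndo replicate 1 at 48 hpf, and miR-338 had 14 in Endo replicate 1 at 48 hpf. In NoEndo at 24 hpf, the 6 reads of miR-187 were 6 different sequences. For miR-735-5p, the scaffold held 12.7% to 16.3% as many reads as chromosome 24 in every library, with no separation of Endo from NoEndo.

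By correlation of log2 scaled levels over the 10 libraries, the microRNAs most like miR-338, among 162 with a mean of at least 100 CPM, were miR-150 (Pearson r 0.89), the joint 5p entry of miR-126a and miR-126b (0.89) and miR-24 (0.89). Those most like miR-22a-5p were miR-150 (0.85), miR-126a-3p (0.81) and miR-139-5p (0.80). For miR-187 they were miR-99 (0.95), miR-103 (0.91) and miR-125a (0.89), and for miR-735-5p they were miR-92a-3p (0.96), miR-30a-5p (0.93) and miR-30d (0.88). All microRNAs of a library share its TMM factor, and some of the likeness went with it. Before TMM scaling r was 0.83, 0.90 and 0.82 for the 3 of miR-338, 0.55, 0.72 and 0.74 for those of miR-22a-5p, 0.54, 0.18 and 0.82 for those of miR-187, and 0.82, 0.20 and -0.13 for those of miR-735-5p. Thus miR-125a for miR-187 and miR-92a-3p for miR-735-5p stayed alike on both scales, and miR-103, miR-30a-5p and miR-30d did not. These values describe 10 libraries that differ in population and stage at once. The 4 were chosen as higher in Endo. Positive r over the 10 libraries, among themselves or with other microRNAs higher in Endo, therefore follows in part from that choice. Among themselves the 4 had r from 0.48 to 0.77 over the 10 libraries, and from -0.41 to 0.75 within Endo and -0.56 to 0.55 within NoEndo, with 5 libraries each.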

How the data were processed

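Small RNA libraries (Illumina TruSeq, RNA by Trizol, per the labels' protocols) gave a sense and an antisense table each. STAR 2.3.0 and the genome build Zv9 appear in the submitters' processing notes. What trimmed and counted the reads was not given in the sources used here. The deposited read counts are whole reads per genomic place, and the deposited expected counts (adjusted for multiple mapping, per the file headers) divide a read over its places. The deposited signal columns (RPM, per the file headers) served only to recover library totals, as read count over RPM. The deposited other column counts distinct read sequences.

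Expected counts were summed by name and rounded. The filter asked for 10 CPM or more in 3 or more libraries and left 265 microRNAs. edgeR 4.0.16 (robust quasi-likelihood, TMM, Benjamini-Hochberg at 0.05) fitted stage and population, and an intercept and slope on log2 hours per population, in R 4.3.3. Each SE is the estimate divided by √F. On simulated data with 60 of 265 changed (1 draw each), slopes of 0.5, 1 and 2 were recovered for 5%, 25% and 95% in Endo, 5%, 30% and 90% in NoEndo, 0%, 5% and 70% for the slope difference, and 5%, 80% and 100% for the stage effect, with 1, 0, 3 and 0 false calls among 205. The simulated counts had a common spread for all microRNAs and, apart from the slopes put in, no difference between populations or stages. Correlations and replicate differences used log2(CPM + 1), as did the ranks by stage and the spread of stage differences over all microRNAs.

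Titles were followed where file names number replicates differently. The members and lists were chosen with earlier results of these data known. Named microRNAs are the 4, entries of their hairpins and miR-22b, the 3 most alike for each, and some markers and others named for comparison. MicroRNA sequences were not used here, so shared seeds are not given. Alternatives were other scalings, filters, count columns and tools (DESeq2 1.42.0, limma 3.58.1), each use of the identical file, a replicate block, and libraries or stages left out.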

Additional observations from a re-analysis of the deposited data

Results flagged for a closer look

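The identical 72 hpf file, titled both Endo and NoEndo and used in no comparison, held more miR-187 and miR-338 than any NoEndo library used. miR-187 was at 116 CPM before TMM scaling (59 counts, 95% Wilson interval 89.7 to 149), above the NoEndo libraries at 9.34 to 86.6 CPM and within the Endo range of 46.3 to 272 CPM. miR-338 was at 408 CPM (208 counts, 356 to 467), above NoEndo at 16.9 to 125 CPM and within Endo at 156 to 685 CPM. The other two did not stand out in this way, since miR-735-5p was at 1322 CPM, below the highest NoEndo library at 1363 CPM, and miR-22a-5p at 381 CPM, below the lowest Endo library at 520 CPM. The labels cannot say which population the file belongs to.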

How the results depend on the processing

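In all 24 alternatives each of the 4 microRNAs stayed higher in Endo (log2 difference 2.06 to 2.98 for miR-187, 2.42 to 3.74 for miR-338, 1.03 to 1.71 for miR-735-5p, 0.75 to 1.39 for miR-22a-5p). They were chosen for this difference in the same data, so nothing is read from the agreement in sign, and the ranges only describe its size. Counts of called microRNAs moved more, and the cause was not tested. Calls between populations (111) were 113 with the identical file as Endo, 27 with it as NoEndo and 40 with it under both titles. They were 43 with no stage term, and 65 to 120 when 1 library was left out, lowest without either 72 hpf library (70 without Endo, 65 without NoEndo). Endo slopes called (15) were 27 with DESeq2 size factors, 25 with the 100 CPM filter, 57 with DESeq2's test, 29 with the identical file as Endo, 40 without both 24 hpf and 27 without both 6 dpf libraries. Leaving out 1 library gave 3 to 31 (5 without Endo 24 hpf, 3 without Endo 6 dpf, 31 without NoEndo 24 hpf, 27 without NoEndo 6 dpf). NoEndo slopes called (40) were 20 with total counts, 74 with DESeq2's test, 70 without both 24 hpf and 9 without both 6 dpf libraries, 26 on linear hours, and 3 to 47 without 1 library (3 without NoEndo 6 dpf). Slope differences called (0) were 1 with DESeq2's test and 0 to 0 without 1 library. Stage effects called (124) were 124 with the identical file as Endo, 67 with it as NoEndo and 79 under both titles. They were 71 without both 24 hpf and 82 without both 6 dpf libraries, and 88 to 131 without 1 library.

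Some slopes that had not passed changed sign. For miR-187 the slope difference was 0.20 without both 6 dpf libraries (-1.04 to 0.55 without 1 library). For miR-338 the NoEndo slope was 0.77 with the identical file as NoEndo, 0.75 under both titles and 0.29 without both 24 hpf libraries (-0.67 to 0.30 without 1 library). For miR-735-5p the Endo slope was -1.01 without both 6 dpf libraries (-0.90 to 1.52 without 1 library), the NoEndo slope was -0.0068 with DESeq2 size factors, -0.19 with total counts, -0.0085 with DESeq2's test and -1.61 without both 6 dpf libraries (-1.55 to 2.12 without 1 library), and the slope difference was -0.60 without both 24 hpf libraries (-1.74 to 1.93 without 1 library). For miR-22a-5p the Endo slope was -0.27 with total counts and -0.027 without both 24 hpf libraries (-0.044 to 0.31 without 1 library).

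With the replicate block, 23 Endo slopes passed and the stage effect of miR-338 passed (adjusted p = 0.0225). Only 48 hpf has 2 replicates of each population, and there the replicate differences of Endo and NoEndo moved together (r = 0.66 over 265 microRNAs). The libraries used at 24 hpf and 6 dpf were all replicate 1, and those at 72 hpf replicate 2. Replicate number and stage are thus partly confounded in the slope and stage tests. The labels do not say what a number marks, and whether it is a shared batch was not tested. The arm share with whole read counts, added after seeing the data, gave mean shares of 15.2% in Endo and 12.1% in NoEndo, as with adjusted counts. The whole reads of the 3p arm were divided there by 2 for its places, nearly as the adjustment does. The match was thus set in advance and is no separate check. At the small counts of miR-187 in NoEndo, depth limits its folds.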

Other observations

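The antisense tables, with 66 lines over all 12 libraries, held 0 lines for the 4 microRNAs or for miR-22a-3p, miR-22b-3p and miR-22b-5p. In the identical 72 hpf file, the counts of miR-22b were 11 on the 3p arm and 0 on the 5p arm, which allows up to 5.89 CPM.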
